A study of Mus musculus with 24 samples.

Results

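The genes described here are 10 markers of white fat cells, looked up in kidney cortex of old mice: Adipoq, Cfd, Retn, Plin1, Plin4, Cidec, Fabp4, Cd36, Lpl and Car3. They were chosen by name, as rows that could show fat around the kidney in a piece of cortex. Of the 10 genes, 8 had a row among the 16921 genes of the deposited tables. Plin1, which coats the lipid droplet of fat cells, and Retn, which encodes the hormone resistin, are not analysed here.

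The series compared 4 groups of 6 libraries from male mice on a C57BL6/J background, aged 22 months. KO_LP is FGF21 knockout on a low protein diet, KO_NP the knockout on a normal protein diet, WT_LP wild type on low protein and WT_NP wild type on normal protein. Low protein meant 5% casein and normal protein 20%, eaten freely from 3 months of age by all 4 groups. The RNA came from flash-frozen cortex and was sequenced as 3' tags with Lexogen QuantSeq, in forward reads of 50 bases. Libraries held 8.47 M to 21.1 M (mega) counted reads, with a median of 15.0 M. Each library is named by its group and a number that carries no meaning beyond the name. Fgf21, the deleted gene, is not analysed here, so the genotype labels were taken as given. The labels do not say whether the knockout was confined to a cell type, and they give no batch. Slc34a1, the sodium phosphate transporter of the proximal tubule, had 917 to 3705 CPM (counts per M reads of the library, scaled by its TMM factor) over the 24 libraries. Such levels show that proximal tubule was present, but not that a piece was cortex alone.

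White fat cells store triglyceride in a single large droplet, and their gene program is driven by the nuclear receptor PPAR gamma together with C/EBP factors. Adipoq encodes the hormone adiponectin and is the most specific of these markers. Cfd encodes adipsin, the serine protease also called complement factor D. Cidec and Plin4 sit on lipid droplets. Fabp4 carries fatty acids inside cells, Cd36 takes them up, and Lpl frees them from circulating triglyceride. Car3, carbonic anhydrase III, is abundant in fat, liver and skeletal muscle. Several of these genes are used outside fat as well: Fabp4, Cd36 and Lpl act in endothelium, muscle or tubule cells, and PPAR alpha, the fasting receptor of liver and kidney, shares many targets with PPAR gamma.

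The start regions of a pair of genes that came up together (Adipoq and Cfd) and of a pair that came up in another library (Plin4 and Cd36) are printed to show what they do and do not share. Each runs 5′ to 3′ on the gene's strand from 250 bases before to 50 bases after the start, from RefSeq on GRCm38.p6, which held 7 of the 10 members. Capitals mark matches, on either strand, to AGGTCA (the core site that nuclear receptors such as the PPARs bind) or to CCAAT. They come from chr16:23146286-23146585 (plus strand) for Adipoq, chr10:79890603-79890902 (plus) for Cfd, chr17:56109733-56110032 (minus) for Plin4 and chr5:17835847-17836146 (minus) for Cd36. The Cd36 window lies inside the annotated gene (17781690 to 17888801), so it shows an internal start and not the 5′ end of the gene. Other start regions of these genes were not examined.
Adipoq: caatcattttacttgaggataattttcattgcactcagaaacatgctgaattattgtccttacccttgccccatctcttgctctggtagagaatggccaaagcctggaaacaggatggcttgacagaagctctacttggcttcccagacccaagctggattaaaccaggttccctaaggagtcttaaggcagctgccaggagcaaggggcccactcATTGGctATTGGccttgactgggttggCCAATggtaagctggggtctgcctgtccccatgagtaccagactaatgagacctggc
Cfd: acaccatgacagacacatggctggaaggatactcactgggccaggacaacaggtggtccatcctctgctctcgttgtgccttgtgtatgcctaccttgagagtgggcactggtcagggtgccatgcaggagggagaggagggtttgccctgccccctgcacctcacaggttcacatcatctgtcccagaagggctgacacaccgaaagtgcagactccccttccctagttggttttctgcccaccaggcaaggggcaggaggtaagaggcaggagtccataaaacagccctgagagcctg
Plin4: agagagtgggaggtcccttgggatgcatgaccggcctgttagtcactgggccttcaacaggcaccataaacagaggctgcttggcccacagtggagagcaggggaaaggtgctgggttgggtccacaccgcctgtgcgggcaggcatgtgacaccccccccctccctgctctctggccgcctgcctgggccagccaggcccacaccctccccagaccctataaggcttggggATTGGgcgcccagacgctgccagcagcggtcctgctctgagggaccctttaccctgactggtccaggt
Cd36: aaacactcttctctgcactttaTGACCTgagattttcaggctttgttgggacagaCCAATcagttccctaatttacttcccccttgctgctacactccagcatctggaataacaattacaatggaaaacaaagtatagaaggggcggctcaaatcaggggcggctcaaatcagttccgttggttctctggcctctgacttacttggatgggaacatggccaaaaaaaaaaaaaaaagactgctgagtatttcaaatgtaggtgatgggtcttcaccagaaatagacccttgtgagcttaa
AGGTCA was present in 16.3% and CCAAT in 37.4% of the 32851 start regions in the table. The Adipoq region held 3 CCAAT matches, at -34, -27 and -7 from the start, and the Cfd region held neither motif. The Plin4 region had 1 CCAAT match at -18, and the Cd36 region had AGGTCA (as TGACCT) at -228 and CCAAT at -195. Neither pair shared an AGGTCA match in these windows.

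Transcripts of the most specific fat genes were close to absent from the cortex libraries, except in 3 animals. Adipoq (ENSMUSG00000022878, chromosome 16, 23146536 to 23158028, GRCm38) had 0 reads in 15 of 24 libraries and at most 3 reads in 21. A count of 0 allows up to 3 reads, which is 0.142 to 0.354 CPM before the TMM factor. The other 3 libraries were KO_NP 4 with 18 reads (1.42 CPM), WT_NP 5 with 34 reads (1.81 CPM) and WT_NP 6 with 45 reads (4.14 CPM). All 3 came from mice on normal protein: more than 10 Adipoq reads were seen in 0 of 12 LP libraries and in 3 of 12 NP libraries. The LP groups held 2 Adipoq reads each over their 6 libraries, against 23 reads in KO_NP and 79 reads in WT_NP.

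Cfd, the adipsin gene (ENSMUSG00000061780, chromosome 10, 79890853 to 79892655), passed 10 reads in the same 3 libraries and in no other. It had 35 reads (2.77 CPM) in KO_NP 4, 213 reads (11.3 CPM) in WT_NP 5 and 94 reads (8.64 CPM) in WT_NP 6. Elsewhere the highest count was 7 reads, in WT_LP 5. The medians over 6 libraries were 0.072 CPM in KO_LP, 0.041 CPM in KO_NP, 0.099 CPM in WT_LP and 0.119 CPM in WT_NP, so the group means were set by these animals. The balance of both transcripts was not the same in the 3 libraries. Cfd made up 66.0% of the Adipoq and Cfd reads in KO_NP 4 (95% exact Clopper-Pearson interval 51.7% to 78.5%), 86.2% in WT_NP 5 (81.3% to 90.3%) and 67.6% in WT_NP 6 (59.2% to 75.3%). The WT_NP 5 interval lay above those of the other 2 libraries; such intervals cover counting error only, since the reads carry no molecular identifiers.

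Cidec, a droplet protein that fuses small droplets into large ones (ENSMUSG00000030278, chromosome 6, 113424634 to 113435760), followed this pattern in part. KO_NP 4 had 7 reads (0.554 CPM), WT_NP 5 had 20 reads (1.06 CPM) and WT_NP 6 had 10 reads (0.920 CPM). WT_LP 5 had 10 reads (0.604 CPM), together with 7 Cfd reads and 1 Adipoq read. The highest level of all stood in KO_LP 6, at 19 reads (1.47 CPM), in a library with 0 Adipoq and 0 Cfd reads. In 18 of 24 libraries Cidec had at most 3 reads.

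**Figure D1:**
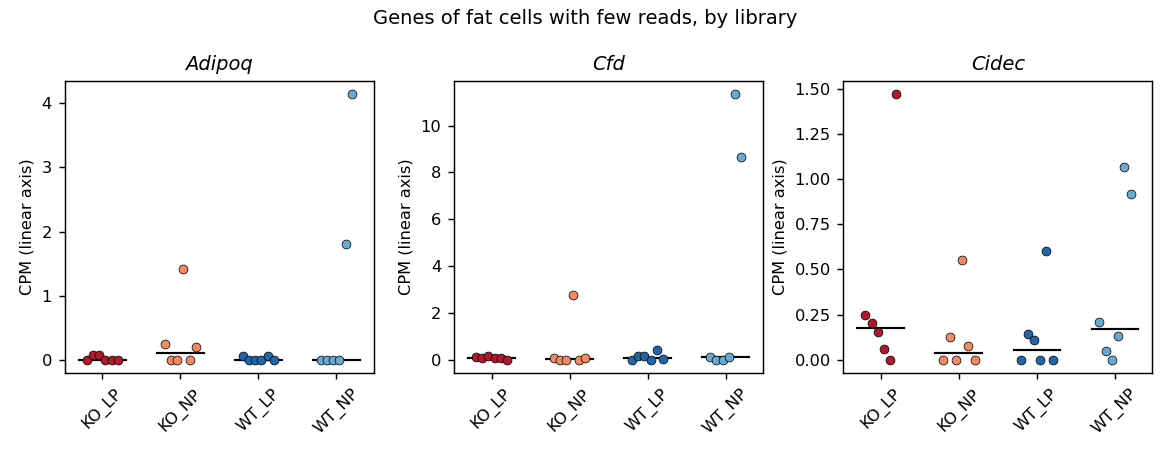
Levels of Adipoq, Cfd and Cidec in CPM on linear axes for the 24 libraries, by group (KO_LP, KO_NP, WT_LP, WT_NP); points are libraries and bars are group medians. Adipoq and Cfd stand above the rest in 1 KO_NP and 2 WT_NP libraries, whereas the highest Cidec point, at 1.47 CPM, belongs to KO_LP.

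Adipoq, Cfd and Cidec fell below the filter on low counts (filterByExpr in edgeR), so the tests across genes did not cover them. Refitted with no filter, none of the 3 genes was called in any of the 5 comparisons by edgeR's quasi-likelihood test. The adjusted p was 0.272 to 0.976 for Adipoq, 0.358 to 0.894 for Cfd and 0.392 to 1.0 for Cidec. The smallest unadjusted p was 0.00337 for Adipoq and 0.00311 for Cfd, both for LP against NP in wild type, where 2 of 6 NP libraries carried nearly all the reads.

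Markers of other tissues around the kidney were read unevenly in the 3 libraries with Adipoq. Of 8 mesothelial genes listed, 4 had a row. Upk1b, a mesothelial and urothelial uroplakin, had 3.24 CPM in KO_NP 4, 4.37 CPM in WT_NP 5 and 1.93 CPM in WT_NP 6. Its median over all 24 libraries was 0.143 CPM. Upk3b had 1.66, 0.958 and 1.93 CPM in the same order, above its median of 0.751 CPM. It was higher still in WT_NP 1 (3.23 CPM) and KO_LP 6 (3.02 CPM). Krt19, a keratin, had 3.32 CPM in KO_NP 4, 5.27 CPM in WT_NP 5 and 5.33 CPM in WT_NP 6 beside a median of 3.35 CPM, and Gpm6a had 120.0, 117 and 116 CPM in the same order beside a median of 114 CPM. The mean of the 4 genes was highest in WT_NP 1, at 3.15 log2 CPM, a library with 0 Adipoq reads, followed by 2.82 in KO_NP 4, 2.90 in WT_NP 5 and 2.85 in WT_NP 6, with at most 2.34 in the other libraries. Of 10 brown fat genes, 4 had a row. Cidea, a droplet gene of brown fat, had 0.712 CPM in KO_NP 4, 1.70 CPM in WT_NP 5 and 0.092 CPM in WT_NP 6, against a median of 0.153 CPM. Dio2 had 0.316, 0.586 and 0.460 CPM in the same order (4, 11 and 5 reads) beside a median of 0.251 CPM. It was highest in WT_LP 4, at 0.699 CPM. Cox7a1, a subunit of cytochrome oxidase, had 27.8 CPM in KO_NP 4, 24.3 CPM in WT_NP 5 and 21.2 CPM in WT_NP 6 beside a median of 22.5 CPM, and Ppara had 48.4, 85.8 and 105 CPM in the same order beside a median of 76.2 CPM. The 16 further white fat genes with a row (from a list of 20, among them Pparg, Lipe, Cebpa and Slc2a4) did not stand out as a mean. Their mean was 3.38 log2 CPM in KO_NP 4, 3.35 in WT_NP 5 and 3.40 in WT_NP 6, within the range of 3.04 to 3.74 over all libraries. Of single genes, 2 were highest in KO_NP 4, 0 in WT_NP 5 and 2 in WT_NP 6. In that order Slc2a4 had 20.72, 14.96 and 13.06 CPM (median 13.52), and Pparg had 3.87, 3.30 and 1.47 CPM (median 1.88). Lgals12 had 0.712, 0.426 and 0.184 CPM (9, 8 and 2 reads, median 0.158). Nnat had 0.395, 0.692 and 0.828 CPM (5, 13 and 9 reads, median 0.284). Cebpa lay below its median of 19.1 CPM in all 3, at 18.03, 16.34 and 15.08 CPM. Lep, Acvr1c, Adrb3 and Adig of that list have no row, and most of the others are also transcribed by kidney cells. The mean of 12 fat stroma genes did not stand out either. It was 3.99 log2 CPM in KO_NP 4, 3.91 in WT_NP 5 and 3.90 in WT_NP 6, within 3.40 to 4.56 over all libraries. Of the 12 genes, 0 were highest in any of the 3 libraries. Whether the Adipoq reads came from fat left on the tissue was not tested, and in bulk RNA more cells of a type and more RNA per cell cannot be told apart.

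Another library stood apart for a different set of the genes. KO_LP 6 had the highest level of Plin4, Fabp4, Cd36 and Cidec among all 24 libraries while Adipoq and Cfd were at 0 reads. Plin4 (ENSMUSG00000002831, chromosome 17, 56100591 to 56109803) reached 10.05 CPM in KO_LP 6, against 0.571 to 2.58 CPM in the other 23 libraries. Fabp4 (ENSMUSG00000062515, chromosome 3, 10204088 to 10208576) reached 437 CPM, against 58.6 to 174 CPM. Cd36 (ENSMUSG00000002944, chromosome 5, 17781690 to 17888801) reached 221 CPM, against 69.6 to 172 CPM. Relative to the median of the other 23 libraries, KO_LP 6 was 8.90-fold higher for Plin4, 3.78-fold for Fabp4 and 1.96-fold for Cd36. Lpl and Car3 did not share this: Lpl had 380 CPM in KO_LP 6, with 10 of 23 libraries below it, and Car3 had 3.02 CPM, with 1 of 23 below it. The last 17 bases of Plin4 overlap the end of Hdgfl2 on the opposite strand, and Hdgfl2 was at 24.7 CPM in KO_LP 6, against 17.5 to 28.7 CPM in the others.

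The same library had the highest level of every one of 20 PPAR alpha target genes that were listed, where 13.9% of all 15165 tested genes had their highest level in it. Gene lists were chosen with earlier results of these data known, so this count is no independent test. Cyp4a14, a fatty acid hydroxylase, had 5150 CPM, against at most 449 CPM. Pdk4, the kinase that shuts pyruvate out of oxidation, had 142 CPM, against at most 13.2 CPM. Plin2, the droplet coat protein of most cells outside fat, had 1310 CPM, against at most 127 CPM. The mean of the 20 genes was 8.07 log2 CPM in KO_LP 6, while the highest mean elsewhere was 6.37.

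Genes of lipid droplets and fatty acid handling were highest in KO_LP 6 for 20 of 31 listed genes. Hilpda, an inhibitor of fat breakdown, had 37.0 CPM in KO_LP 6, against at most 13.0 CPM elsewhere, and Gpihbp1, which anchors Lpl to the capillary wall, had 27.8 CPM, against at most 22.7 CPM. Cideb, the Cidec relative of liver and kidney, was at its lowest in that library, with 187 CPM. Among the 16 further white fat genes, 6 were highest in KO_LP 6, including Pparg at 4.79 CPM and Lipe, hormone-sensitive lipase, at 35.9 CPM. These counts share genes: 4 of the 6 (Lipe, Pparg, Agpat2 and Acsl1) are also among the 20 lipid droplet genes, and 4 of those 20 (Plin2, Plin5, Angptl4 and Fabp1) are also PPAR alpha targets. Other features of that library moved alongside. Its proximal tubule marker mean was the lowest of the 24, at 7.85 log2 CPM. Of 4 adrenal genes with a row, 2 were highest there. Akr1b7 stood at 14.8 CPM, against at most 3.21 CPM elsewhere, and Mrap at 3.56 CPM, against at most 1.51 CPM. Star had 0.773 CPM there and was highest in WT_NP 4, and Mc2r had 1.16 CPM and was highest in KO_NP 2. The part of these features in the lipid genes' levels was not tested.

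**Figure D2:**
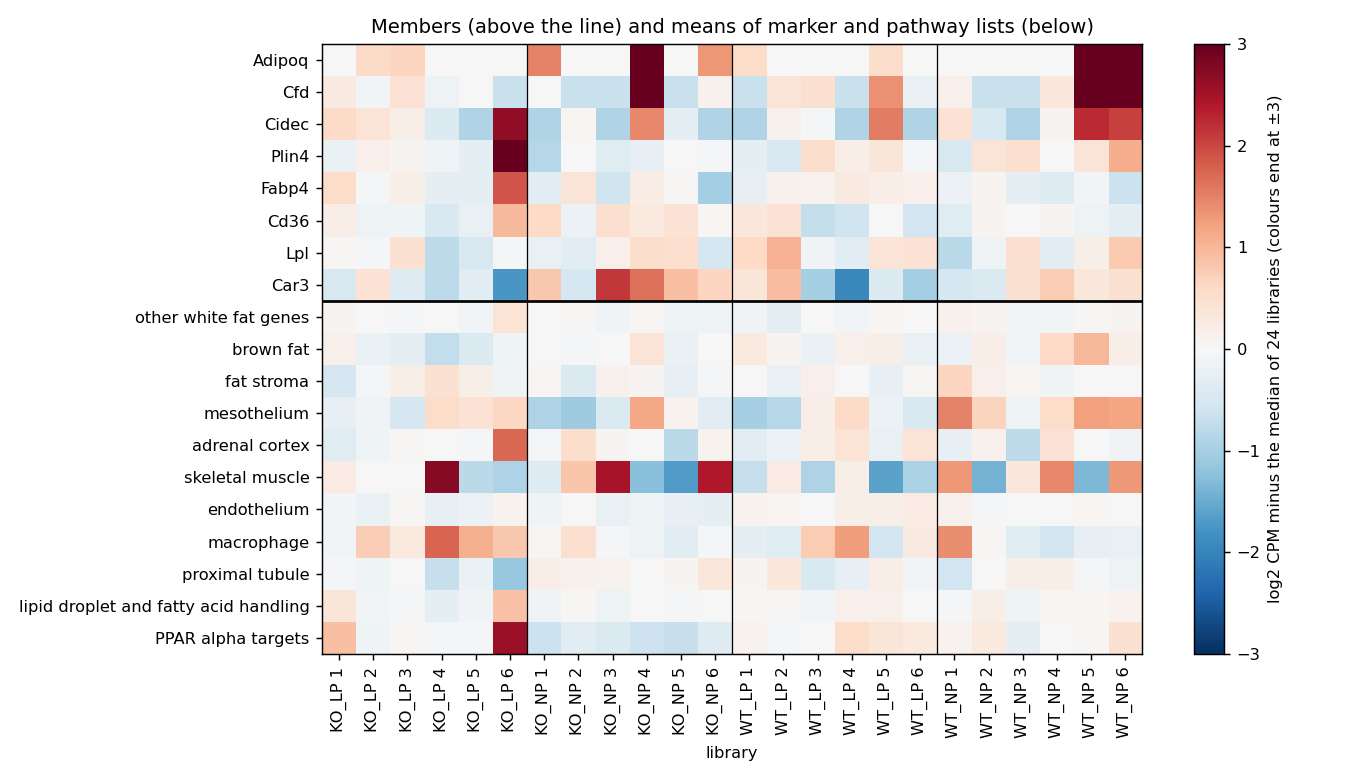
Colours give log2 CPM minus the median of the 24 libraries for the 8 members (above the line) and for the mean of each marker or pathway list (below it), with libraries in columns ordered KO_LP, KO_NP, WT_LP, WT_NP. KO_NP 4, WT_NP 5 and WT_NP 6 are dark red for Adipoq and Cfd, and KO_LP 6 is red for Cidec, Plin4, Fabp4, Cd36 and the PPAR alpha targets.

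The comparison of LP with NP in knockout mice gave the one call among the members. Here 5 of the 10 genes passed the filter and were tested: Plin4, Fabp4, Cd36, Lpl and Car3. Over all genes, 7.17% were called in this comparison (1087 of 15165, adjusted p under 0.05, edgeR), with 3.59% higher and 3.58% lower on LP. Of the 5 members, 0 were called higher and 1 lower. Car3 (ENSMUSG00000027559, chromosome 3, 14863512 to 14872523) had 3.02, 7.72 and 14.1 CPM as lowest, median and highest of 6 KO_LP libraries, against 7.21, 19.1 and 45.7 CPM in KO_NP. The groups overlapped, since KO_NP 2 was at the low end and KO_LP 2 at the high end, but all 6 KO_LP libraries lay below the KO_NP mean. Means were 7.80 ± 3.65 CPM in KO_LP and 23.4 ± 13.7 CPM in KO_NP (SD, n = 6 each). Car3 fell by 1.58 on the log2 scale (SE 0.447, edgeR adjusted p = 0.0397).

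The Car3 call depended on which libraries were in the fit. With every KO_LP and KO_NP library kept, it held under every other scaling, filter and tool tried. There the adjusted p ran from 0.0124 (DESeq2) to 0.0474 (limma voom). The call was kept in only 15 of the 24 fits that left out 1 library. In edgeR the adjusted p was 0.0517 without KO_LP 3, 0.102 without KO_LP 4, 0.0608 without KO_LP 5 and 0.0738 without KO_LP 6. It was 0.0557 without KO_NP 1, 0.0807 without KO_NP 3, 0.0720 without KO_NP 4, 0.0684 without KO_NP 5 and 0.0524 without KO_NP 6. The adjusted p also moves with the other genes tested. Without KO_NP 6 the unadjusted edgeR p for Car3 was 0.00170, against 0.00179 in the full fit. Without KO_LP 1 it was 0.00374, and Car3 was called (edgeR adjusted p = 0.0370). A lost call thus need not mean that the left-out library carried the Car3 difference. The log2 fold stayed between -1.85 and -1.29 in all 24 fits. Without the 3 libraries with Adipoq reads it was -1.46 (edgeR adjusted p = 0.0903). Without those and KO_LP 6 it was -1.29 (edgeR adjusted p = 0.148). Car3 was high in KO_NP 3 (45.7 CPM), where no Adipoq or Cfd read was seen.

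Genes of skeletal muscle, another tissue rich in Car3, were read at uneven levels. The 9 muscle genes with a row (of 12 listed, with Myh1, Myh2 and Myh7 lacking one) summed to 4.41, 8.37 and 69.1 CPM as lowest, median and highest in KO_LP, against 1.77, 11.0 and 56.6 CPM in KO_NP. KO_LP 4 had the highest muscle sum, 69.1 CPM, with Car3 at 5.98 CPM. KO_NP 3, the library with most Car3, had 56.6 CPM of muscle genes, while KO_NP 4, the next in Car3 with 33.0 CPM, had 2.85 CPM. The part of muscle RNA in the Car3 levels was not tested.

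In wild type mice Car3 had 2.62, 6.49 and 20.0 CPM as lowest, median and highest of 6 WT_LP libraries, against 7.19, 13.8 and 17.9 CPM in WT_NP. The WT_LP libraries spanned the whole WT_NP range. The log2 fold of LP over NP was -0.47 (SE 0.439, edgeR adjusted p = 1.0), and the diet effect in KO minus that in WT was -1.11 (SE 0.623, edgeR adjusted p = 0.381), so a difference between genotypes was not shown. On NP, Car3 averaged 23.4 ± 13.7 CPM in KO and 12.5 ± 4.21 CPM in WT, a log2 fold of 0.91 (edgeR adjusted p = 0.382).

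Plin4 in knockout mice had 0.917, 1.13 and 10.05 CPM as lowest, median and highest in KO_LP, against 0.571, 1.02 and 1.16 CPM in KO_NP. The other 5 KO_LP libraries reached at most 1.29 CPM, close to the KO_NP range. The log2 fold of LP over NP was 1.42 (SE 0.510, edgeR adjusted p = 0.0792) with that library and 0.18 (edgeR adjusted p = 0.728) without it. Without KO_LP 1, which had 8 Plin4 reads, the fold was 1.56 and the adjusted p 0.0468 in edgeR, so that 2 members were called. The diet effect in KO minus that in WT was 1.71 for Plin4 (edgeR adjusted p = 0.255), and 0.47 without KO_LP 6 (edgeR adjusted p = 0.565).

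Fabp4 had 96.6, 124 and 437 CPM in KO_LP, against 58.6, 108 and 155 CPM in KO_NP, with a log2 fold of 0.71 (SE 0.298, edgeR adjusted p = 0.127). Without KO_LP 6 the fold was 0.20. Cd36 had 82.2, 103 and 221 CPM in KO_LP, against 100.1, 146 and 172 CPM in KO_NP. Its log2 fold was -0.19 (SE 0.221, edgeR adjusted p = 0.612) with KO_LP 6 and -0.44 (edgeR adjusted p = 0.153) without it, as 5 of 6 KO_LP libraries lay below the KO_NP mean. Lpl, the triglyceride hydrolase (ENSMUSG00000015568, chromosome 8, 68880491 to 68907448), had 229.6, 384 and 539.6 CPM in KO_LP, against 276.6, 389.5 and 566 CPM in KO_NP, a log2 fold of -0.17 (edgeR adjusted p = 0.712). None of these 3 genes separated the diets.

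**Figure D3:**
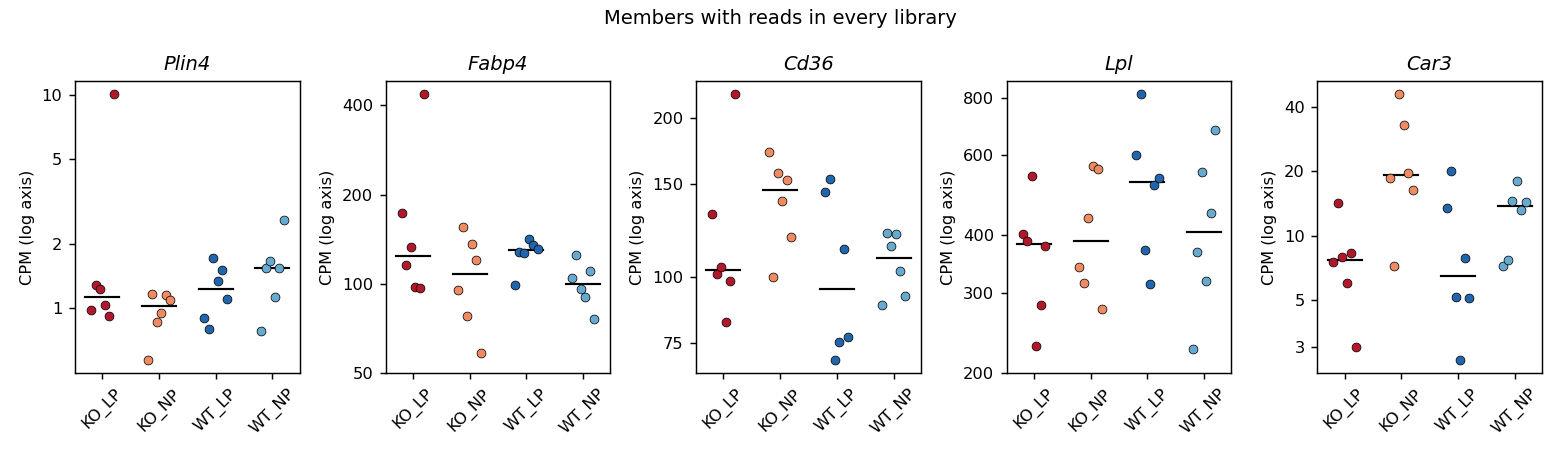
Levels of Plin4, Fabp4, Cd36, Lpl and Car3 in CPM on log axes for 24 libraries by group; points are libraries and bars are medians. KO_LP holds 1 point far above the others for Plin4, Fabp4 and Cd36, and the Car3 median is 7.72 CPM in KO_LP against 19.1 CPM in KO_NP.

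Low protein in wild type mice called none of the 5 tested members, and 0% of all genes in edgeR. At an unadjusted p under 0.05, edgeR gave 0 of the 5 members and 580 of 15165 genes. DESeq2, which gave no p for Plin4, and limma voom called 0 members as well. Fabp4 averaged 127 ± 14.6 CPM in WT_LP and 100.4 ± 17.1 CPM in WT_NP (SD, n = 6 each), with 5 of 6 WT_LP libraries above the WT_NP mean (log2 fold 0.34, edgeR adjusted p = 1.0). WT_LP 1 was the exception at 99.5 CPM, where the other 5 WT_LP libraries lay between 127 and 141 CPM. Lpl averaged 524.5 ± 178 CPM in WT_LP and 431.5 ± 165 CPM in WT_NP, and Plin4 averaged 1.23 ± 0.357 CPM in WT_LP and 1.54 ± 0.605 CPM in WT_NP. For all of these, the groups overlapped.

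Knockout against wild type called none of the members on either diet, where edgeR called 0.574% of all genes on NP (0.343% higher, 0.231% lower) and 2.93% on LP (1.35% higher, 1.59% lower). At an unadjusted p under 0.05, 1 of the 5 members passed on each diet in edgeR: Car3 on NP and Plin4 on LP. Over all 15165 genes, 1915 did so on NP and 3196 on LP. DESeq2 and limma voom called 0 members on either diet, though DESeq2 gave no p for Plin4 and could not have called it. On NP, Cd36 averaged 140.2 ± 26.6 CPM in KO and 106 ± 14.4 CPM in WT, with 5 of 6 KO libraries above the WT mean (log2 fold 0.40, edgeR adjusted p = 0.470). On LP, Lpl averaged 370.5 ± 108 CPM in KO and 524.5 ± 178 CPM in WT (log2 fold -0.50, edgeR adjusted p = 0.274). The fold of Plin4 on LP was 1.07 with KO_LP 6 (edgeR adjusted p = 0.208) and -0.17 without it. The knockout and diet comparisons share groups, so their folds for a gene are not independent of each other.

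The test of the difference between diet effects called none of the 5 members and 0% of all genes. Only Plin4 had an unadjusted p under 0.05 in edgeR, where 2430 of 15165 genes did. The DESeq2 and limma voom fits called 0 members in that test too. DESeq2 gave no p for Plin4, so it could not have called that gene.

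**Figure D4:**
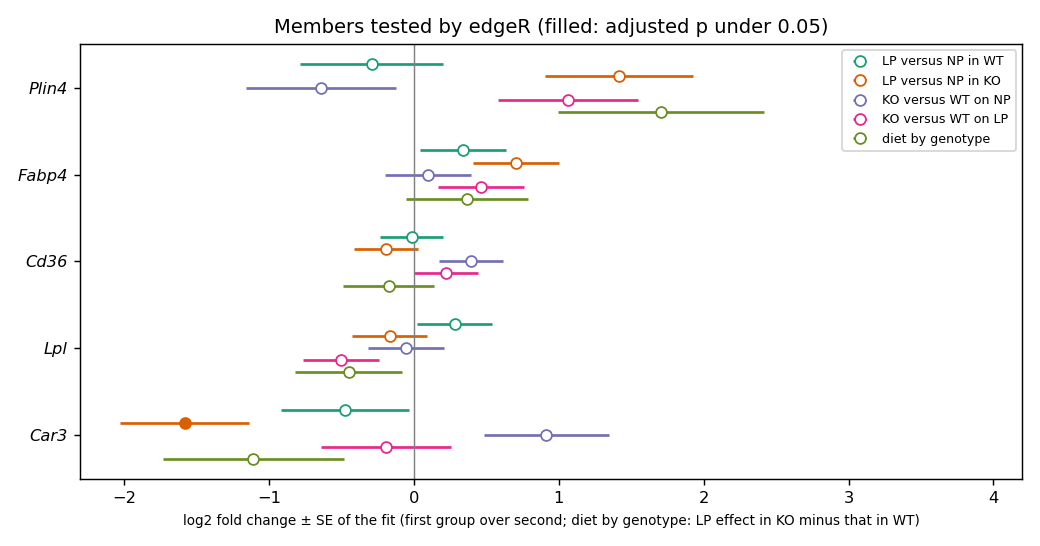
Log2 fold changes with the SE of the edgeR fit for the 5 tested members in 5 comparisons (LP over NP in each genotype, KO over WT on each diet, and the LP effect in KO minus that in WT). The single filled point, with an adjusted p under 0.05, is Car3 for LP over NP in KO at -1.58.

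On LP against NP in KO, 8 of 19 tested PPAR alpha targets rose and 0 fell (edgeR). The list's median log2 fold was 1.35, where that of all genes was 0.032. Among the called genes with the smallest p were the thioesterase Acot1 with a log2 fold of 1.85, Pdk4 with 3.52 and the fatty acid hydroxylase Cyp4a10 with 1.74. Without KO_LP 6, 1 of 19 rose and the median was 0.35. Without any other single library the median lay between 1.27 and 1.51, although the number called was also 1 without KO_NP 1, KO_NP 4 or KO_NP 5, 2 without KO_NP 3, 3 without KO_NP 6, 4 without KO_LP 4 and 5 without KO_NP 2. Among 30 tested genes of lipid droplets and fatty acid handling, Angptl4, an inhibitor of Lpl, rose by 1.29 and Plin2 by 2.03 on the log2 scale, and Lmf1, which matures Lpl, fell by 0.29. The median of that list was 0.19, and without KO_LP 6 it was 0.079, with 0 calls. None of the 14 tested further white fat genes passed (median 0.18), nor did any of 11 fat stroma or 15 endothelial genes, by edgeR.

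Of 10 proximal tubule markers, 2 were called in that comparison: Slc34a1 fell by 0.68 and Slc5a2, the glucose transporter SGLT2, fell by 0.69 on the log2 scale in KO_LP. Of 12 macrophage genes, Cd14 rose by 1.33 and C1qa by 1.10. C3, the complement protein that the adipsin cascade acts on, rose by 1.62. The macrophage median was 0.99, with 12 of 12 folds above 0, and KO_LP 4 had the highest level of 11 of the 12 genes. Without KO_LP 4 that median was 0.65, and without KO_LP 6 it was 0.97, with no call by edgeR in either fit. The proximal tubule median was -0.35, and it was -0.30 without KO_LP 4 and -0.35 without KO_LP 6, again with no call. Over the 24 fits that left out 1 library, Cd14 was called in 21, C1qa in 10, C3 in 13 and Slc34a1 and Slc5a2 in 17 each. On LP, KO against WT, Rarres2, the gene of the adipokine chemerin, was higher by 1.29 (edgeR adjusted p = 0.000729), and it alone was called among 13 genes of adipokine partners and receptors. Adipor1 and Adipor2, the adiponectin receptors, had rows in all libraries, at 45.9 to 67.9 CPM and 56.4 to 79.2 CPM.

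Whether the 8 genes varied together over libraries was asked next. The 28 pairs were compared on log2 CPM with the group mean removed, with permutation within groups and adjustment over the pairs. Only 3 of the 28 pairs passed by both Pearson's r and Spearman's rho: Adipoq with Cfd, Cidec with Cfd, and Car3 with Lpl. The first pair rests on the 3 libraries with Adipoq reads, which form a cluster of their own, so no r is given over all 24. Within the other 21, where Adipoq had at most 3 reads, that pair did not pass (permutation adjusted p = 0.153). For Car3 and Lpl, r was 0.57 (permutation adjusted p = 0.0469) and rho 0.63 (permutation adjusted p = 0.0346). Without KO_NP 3 and WT_LP 4, the farthest in Car3, r was 0.53. Within the same 21 libraries Car3 and Lpl had r = 0.56 and rho 0.64 (permutation adjusted p = 0.111 and 0.0556), and Cidec and Cfd had r = 0.30 (permutation adjusted p = 0.395), so that none of the 3 pairs passed there. By Pearson's r alone, the number of pairs that passed was 0 without KO_NP 4, 1 without WT_LP 5 or WT_NP 5, and 5 without KO_NP 6 or KO_LP 6. By both measures it was 0 to 3 over the 24 fits that left out 1 library, with 0 without KO_LP 3 or KO_NP 4 and 3 without KO_LP 6. In most of these fits Car3 with Lpl did not pass by both. It did only without KO_LP 5, KO_LP 6, KO_NP 3, KO_NP 5, KO_NP 6, WT_NP 2, WT_NP 4 or WT_NP 6. Cidec with Cfd did so only without KO_LP 6, KO_NP 1, KO_NP 2, KO_NP 5, KO_NP 6 or WT_LP 6. With a prior count of 0.5, or on the deposited normalized signal, Cidec with Cfd passed by Pearson's r alone.

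Adipoq passed with none of Fabp4, Plin4, Cd36, Lpl and Car3. In the 3 libraries with Adipoq reads, Fabp4 had 137 CPM in KO_NP 4, 111 CPM in WT_NP 5 and 76.0 CPM in WT_NP 6, within the 58.6 to 174 CPM of the libraries other than KO_LP 6. Plin4 had 0.949 CPM in KO_NP 4, 1.54 CPM in WT_NP 5 and 2.58 CPM in WT_NP 6. WT_NP 6, the library with most Adipoq, had the highest Plin4 and the lowest Fabp4 of its group. Car3 and Cd36 had r = 0.34 over 24 libraries (permutation adjusted p = 0.292, rho 0.42). Without KO_LP 6, r was 0.71 (permutation adjusted p = 0.0138) and rho 0.61 (permutation adjusted p = 0.0688), so the pair did not pass by both. Without KO_NP 4, WT_NP 5, WT_NP 6 and KO_LP 6 it did. There r was 0.76 (permutation adjusted p = 0.0297) and rho 0.74 (permutation adjusted p = 0.0389), and Lpl passed with Cd36 as well.

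Relations to other cell types of the cortex were read the same way, over 8 members for each list, and counts of those that passed are by Pearson's r. With the mean of 15 endothelial markers, Fabp4 had r = 0.68 (permutation adjusted p = 0.0181) and rho 0.55 (permutation adjusted p = 0.103). Without the farthest libraries KO_NP 6 and KO_NP 5, r was 0.69. The call was lost without KO_LP 6, where r was 0.53 (permutation adjusted p = 0.21), and the number that passed was also 0 without KO_LP 4, KO_NP 2 or KO_NP 6, and 2 without WT_LP 3. With the mean of 10 proximal tubule markers, Car3 had r = 0.57 (permutation adjusted p = 0.0243) and rho 0.54 (permutation adjusted p = 0.0718). Without KO_LP 6 and KO_LP 4, r was 0.49. None passed without KO_LP 4 or WT_LP 2, and 2 passed without WT_NP 1. Without KO_LP 6, Cd36 had r = 0.67 with that mean (permutation adjusted p = 0.0106) and rho 0.65 (permutation adjusted p = 0.0262), and Car3 had r = 0.48 (permutation adjusted p = 0.0615). Without KO_NP 4, WT_NP 5, WT_NP 6 and KO_LP 6, Car3, Lpl and Cd36 each passed with that mean by both measures. There r was 0.54 for Car3, 0.68 for Lpl and 0.67 for Cd36 (permutation adjusted p = 0.0427, 0.0178 and 0.015). For rho the permutation adjusted p was 0.0454 for each, and Adipoq passed by rho alone.

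Against the mean of PPAR alpha targets, Plin4 had r = 0.80 (permutation adjusted p = 0.0607, rho 0.44) and Fabp4 r = 0.73 (permutation adjusted p = 0.0607, rho 0.46). Both rest on KO_LP 6: without it r was 0.19 for Plin4 and 0.25 for Fabp4. Car3 ran the other way, with r = -0.49 (permutation adjusted p = 0.0221) and rho -0.47 (permutation adjusted p = 0.144), and r = -0.39 without KO_LP 6 (permutation adjusted p = 0.306). The count that passed went to 0 without KO_LP 6, KO_NP 2, WT_LP 2 or WT_LP 4, to 2 without KO_NP 6 or WT_NP 6, to 3 without KO_NP 4 and to 4 without WT_LP 3.

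**Figure D5:**
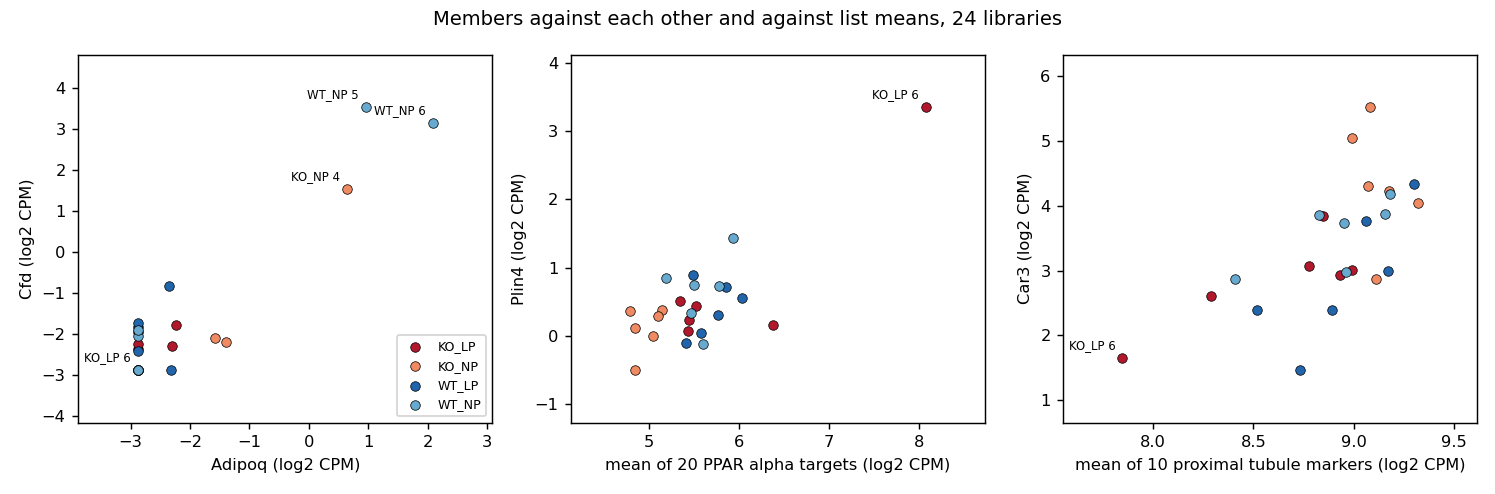
Cfd against Adipoq, Plin4 against the mean of 20 PPAR alpha targets, and Car3 against the mean of 10 proximal tubule markers, all in log2 CPM, with 1 point per library coloured by group. KO_NP 4, WT_NP 5 and WT_NP 6 stand apart on the left, and KO_LP 6 is the far right point of the middle panel and the lowest in tubule markers on the right.

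Genes with the most similar pattern over the 24 libraries were looked up by Spearman's rho with the group mean removed. For the mean rho with Adipoq and Cidec, the top genes were Abhd4, a phospholipase of N-acyl lipids, with 0.59, Nhsl1 with 0.59 and Sh3d21 with 0.58. None of the 10 highest was a gene of the fat lists, and with so many libraries at 0 for Adipoq this ranking carries little. For Car3, looked up after its values were seen, Cstf3 had rho = 0.85, Selenbp2 0.83 and Fam149a 0.81, followed by Kl, the gene of klotho, with 0.80. For Cd36, also added afterwards, Ephx2 (soluble epoxide hydrolase) had 0.90, Phyh (a peroxisomal hydroxylase) 0.89 and Slc22a12 (the urate transporter URAT1 of the proximal tubule) 0.88. For Plin4 the closest was Nrbp2 with 0.83.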

How the data were processed

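RNA from kidney cortex of 24 mice was measured in 4 groups of 6 libraries. The authors deposited raw read counts per gene and a normalized signal that equals those counts divided by 1 size factor per library. The submitters' processing notes name GRCm38 and DESeq2 1.22.2; which aligner and counter were run is not given in the sources used here. Genes with a mean count under 3 were not in the tables. The file gave 14208 symbols and GENCODE M21 another 2668, with coordinates.

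Counts were tested in R 4.3.3 with edgeR 4.0.16 (TMM factors, filterByExpr on the 4 groups, which left 15165 genes and set 1756 aside, 1 robust quasi-likelihood fit with 4 group means, two-sided, Benjamini-Hochberg over all genes, called under 0.05). The biological coefficient of variation was 19.6%. CPM are scaled by library size and TMM factor, and log2 CPM uses a prior count of 2. Relations over libraries used 100000 permutations within groups, two-sided, adjusted within each family (28 pairs of members, or 8 members for each list). The relations to proximal tubule and PPAR alpha genes were added after the data were seen. The procedure was tested on simulated data. Alternatives were DESeq2 size factors, no filter, only the compared groups, limma 3.58.1 voom with quality weights, DESeq2 1.42.0, limma on the deposited normalized signal after log2 with a pseudocount of 1, and fits lacking each library; fits without 3 or 4 libraries that stood apart were added after the data were seen.

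Members and gene lists were chosen with earlier results of these data known. Named genes are all members, up to 4 called genes of a list with the smallest p, and the 10 genes nearest in pattern to Adipoq and Cidec; 1 gene that this rule names is not reported here. Nothing in the labels says whether libraries of a group differ by more than the animal, so p-values measure the spread between these libraries. Depth limits Adipoq, Cfd and Cidec to a few reads.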

Additional observations from a re-analysis of the deposited data

Results flagged for a closer look

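A library far from the other 5 of its group was flagged in 9 of 32 combinations of gene and group, by Dixon's ratio of gap to range (95% critical value for 6 libraries). Chance flags about 1 in 20 where values are normally distributed. Genes with few reads do not meet that condition, and several flags share a library. The number of flags was therefore not read as an excess. KO_LP 6 gave 4 of them: Plin4 at 10.05 CPM where the others of its group had at most 1.29 CPM, Fabp4 at 437 CPM with the others at most 174 CPM, Cd36 at 221 CPM with the others at most 131 CPM, and Cidec at 1.47 CPM (19 reads) with the others at most 0.245 CPM. KO_NP 4 gave 3, for Adipoq at 1.42 CPM (18 reads, others at most 0.244 CPM), Cfd at 2.77 CPM (35 reads, others at most 0.099 CPM) and Cidec at 0.554 CPM (7 reads, others at most 0.129 CPM). WT_LP 5 stood out for Cidec at 0.604 CPM (10 reads, others at most 0.145 CPM). Fabp4 in WT_LP 1 was flagged as low, at 99.5 CPM, with the other 5 libraries at 127 to 141 CPM. WT_NP 5 and WT_NP 6 were not flagged, since each has the other beside it.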

How the results depend on the processing

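No paired analysis was possible because the labels share no replicate numbers between groups. The number of members called for LP against NP in KO was 1. It ranged from 0 to 2 when 1 library was left out, and was 0 both without KO_NP 4, WT_NP 5 and WT_NP 6 and without those and KO_LP 6. It was 1 under every other scaling, filter, sample set and tool; the other 4 comparisons stayed at 0 throughout. Pairs of members that covaried numbered 3. By Pearson's r alone there were 5 when group means were not removed and 0 to 5 over single leave-outs. Without KO_NP 4, WT_NP 5 and WT_NP 6 there was 1 (Fabp4 with Cidec, none of the 3). Without those and KO_LP 6 there were 4. By both Pearson's r and Spearman's rho these were 2, 0 to 3, 0 and 3. The last 3 were Car3 with Lpl, Car3 with Cd36 and Lpl with Cd36. For the endothelial markers the number was 1, with 0 when group means were not removed, 0 to 2 over single leave-outs and 0 without the 4 libraries.

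Folds that changed sign were all uncalled; that of Plin4 for KO over WT on LP was 1.07 over all libraries, and the others were under 0.5 in size there. With limma voom, KO over WT was -0.023 for Fabp4 on NP and 0.27 for Car3 on LP. Without the 3 libraries, KO over WT on NP was -0.031 for Fabp4 and 0.080 for Lpl, and without the 4 libraries it was -0.031 and 0.079. Without those 4, KO over WT on LP was -0.048 for Fabp4, -0.17 for Plin4 and -0.030 for Cd36, and the diet by genotype difference of Fabp4 was -0.017. Over single leave-outs the log2 fold ran from -0.15 to 0.080 for Cd36 (LP over NP in WT), -0.15 to 0.50 for Fabp4 (diet by genotype), -0.037 to 0.22 for Fabp4 and -0.18 to 0.12 for Lpl (KO over WT on NP), and, for KO over WT on LP, -0.047 to 0.59 for Fabp4, -0.17 to 1.24 for Plin4, -0.46 to 0.20 for Car3 and -0.029 to 0.36 for Cd36. The cause was not tested. DESeq2 gave no p and no adjusted p for Plin4 in any comparison, so its counts of called members leave that gene out.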
